A study of Mus musculus with 4 samples.

Results

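Transcripts of 10 mouse genes used as eosinophil genes were followed in lung RNA from 4 libraries. They comprise the eosinophil-associated ribonuclease genes Ear11, Ear1, Ear2, Ear6 and Ear7, the granule protein gene Prg2, the receptor genes Ccr3, Il5ra and Siglec5, and the transcription factor gene Cebpe. The genes were taken by symbol from both deposited tables, where all 10 of them were present among 23284 genes. Siglec5 is the tables' name for the mouse gene now called Siglecf, and Ear11 is annotated today as Rnase2a.

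The study concerns interleukin-22 (IL-22) in a mouse model of asthma, and each of its 4 groups of C57BL/6 mice is represented by 1 library of whole lung. The groups were IL22-/- mice that received house dust mite (HDM) allergen for sensitization and again as challenge, wild-type mice given the same HDM course, wild-type mice given recombinant IL-22 into the trachea, and wild-type mice given phosphate-buffered saline (PBS) by that route. Lungs were collected 48 h after the last HDM dose and 24 h after IL-22 or PBS. The labels state neither age, nor the number of animals per library, nor how the knockout allele was made, and no HDM-free knockout is among the groups. Levels are FPKM, fragments scaled by transcript length and by library size, so they can be compared between genes within a library. The HDM pair and the IL-22 and PBS pair are held in different tables, and whether these were scaled together is not known. Differences were therefore taken within a table, and levels from different tables are only set side by side.

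Eosinophils are granulocytes of allergic inflammation. They mature in the bone marrow under interleukin-5, which signals through the receptor encoded by Il5ra, and follow eotaxin chemokines into tissue through the receptor encoded by Ccr3. Their granules hold cationic proteins, among them the major basic protein encoded by Prg2, the peroxidase encoded by Epx, and ribonucleases of the RNase A superfamily. In mice these ribonucleases form a multigene family, the Ear genes, which is related to human eosinophil-derived neurotoxin and eosinophil cationic protein. Ear1, Ear2 and Siglec5 are also expressed by mouse alveolar macrophages, and Cebpe is also used by neutrophil precursors, so these genes do not mark eosinophils alone. Nor is Ear11 or any other member taken here to mark eosinophils alone, because the cells that gave the RNA were not tested.

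The Ear genes lie in separate groups on chromosome 14 and resemble each other to different degrees, which bears on how far their values can be told apart. In the GENCODE M21 annotation of GRCm38, the assembly called mm10, Ear1 (43818765 to 43875517) and Ear2 (44102654 to 44103534) are neighbours of the non-member Ear10 (43922720 to 43923559). Ear11 (51255262 to 51256112) lies with Ear5, now Rnase2b (51162260 to 51163018), and Ear6 (51853699 to 51854643) lies beyond them. The first 120 coding bases of 6 Ear genes are shown for this comparison, read from the GENCODE transcripts, with capitals marking each base that differs from Ear2 at the same position counted from the start codon.
Ear2 (chr14:44102887-44103006, plus strand): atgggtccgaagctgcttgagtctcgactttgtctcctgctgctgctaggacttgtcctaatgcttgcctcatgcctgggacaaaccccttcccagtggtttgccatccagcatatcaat
Ear1 (chr14:43819290-43819409, minus strand): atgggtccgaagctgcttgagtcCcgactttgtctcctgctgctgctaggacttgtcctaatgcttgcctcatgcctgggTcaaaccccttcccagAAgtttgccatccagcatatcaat
Ear10 (chr14:43923249-43923368, minus strand): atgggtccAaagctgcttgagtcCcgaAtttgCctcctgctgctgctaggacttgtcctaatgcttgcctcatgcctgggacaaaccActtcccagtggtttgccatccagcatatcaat
Ear6 (chr14:51853998-51854117, plus strand): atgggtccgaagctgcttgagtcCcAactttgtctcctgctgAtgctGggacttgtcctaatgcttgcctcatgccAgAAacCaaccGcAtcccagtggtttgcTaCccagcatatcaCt
Ear5 (chr14:51162464-51162583, plus strand): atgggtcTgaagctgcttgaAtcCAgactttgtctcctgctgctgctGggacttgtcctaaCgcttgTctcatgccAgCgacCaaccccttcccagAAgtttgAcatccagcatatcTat
Ear11 (chr14:51255787-51255906, minus strand): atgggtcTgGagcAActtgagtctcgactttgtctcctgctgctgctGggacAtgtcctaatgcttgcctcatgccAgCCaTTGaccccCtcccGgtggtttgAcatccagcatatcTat
Ear1 differed from Ear2 at 4 of these positions and Ear10 at 5. Ear6 differed at 13, Ear5 at 14 and Ear11 at 16. Over the whole coding sequence Ear2 was 97.0% identical to Ear10 and 95.1% to Ear1, 87.6% to Ear6 and 79.8% to Ear11. The closest relative of Ear11 among these genes was Ear5, at 83.7%.

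Windows of 50 bases were used to ask how much of each transcript also occurs in transcripts of other annotated genes. Of the 664 windows of Ear1, 57.4% were found elsewhere, mostly in Ear-ps9, Ear2, Ear10 and Ear-ps2. For Ear2 the share was 41.5% of 670 windows, and for Ear6 it was 1.36% of 664. None of the 641 windows of Ear11 and none of the 710 windows of Ear5 was found in another annotated gene. The labels do not state the read length, so these shares describe the sequences and not the reads. Reads that match several Ear genes can be split between their rows, which makes the single values of Ear1, Ear2 and Ear10 uncertain. Ear7 and Ear12 had no matching transcript in the annotation, so they were not placed and their shared windows could not be counted. Their values are uncertain too. Ear11 and Ear5 were therefore not compared with Ear7 and Ear12, and windows shared with these would have been missed. The other members lie at chr2:84980461-84983632 (Prg2, plus strand, 6 exons), chr9:124021972-124031689 (Ccr3, plus strand), chr6:106710357-106749037 (Il5ra, minus strand, 13 exons), chr7:43351341-43359531 (Siglec5, plus strand, 10 exons) and chr14:54710360-54712174 (Cebpe, minus strand).

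**Figure D1:**
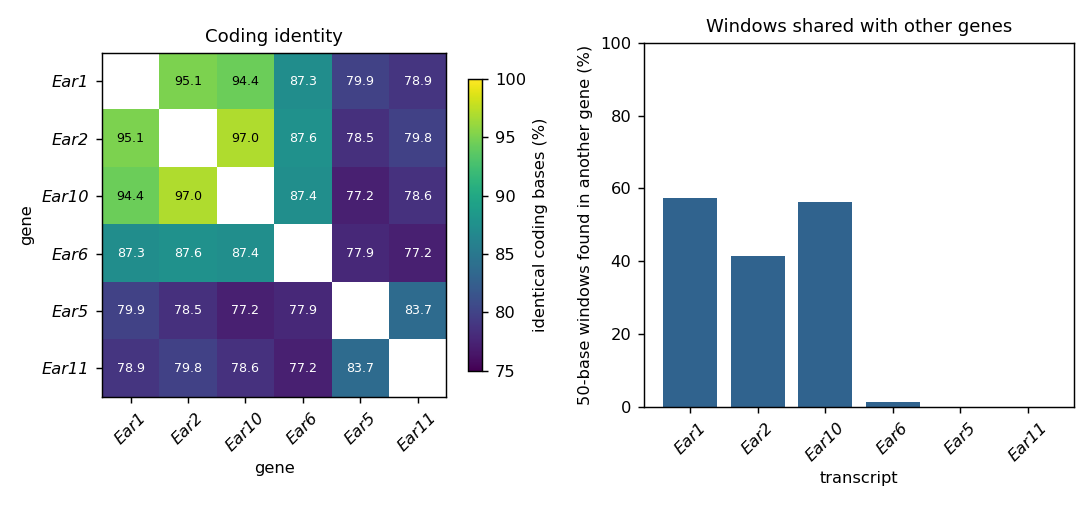
Left, percent of identical coding bases between 6 Ear genes in global alignments. Right, percent of each transcript's 50-base windows that also occur in another annotated gene. Ear1, Ear2 and Ear10 share 94.4 to 97.0% of coding bases and many windows, while Ear5 and Ear11 share no window with another annotated gene. Ear7 and Ear12 had no matching transcript in the annotation and are not drawn.

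The libraries were judged before the member genes. Whole-read steps in the low FPKM values gave an estimated 27.14 M reads for the IL22-/- HDM library, 24.82 M for wild-type HDM, 28.72 M for IL-22 and 19.97 M for PBS. All 7 lung marker genes were detected in every library, with Scgb1a1, the club cell secretoglobin, at 112693 to 141280 FPKM. Il22 itself was listed at 0 in the IL22-/- HDM library and with 8 reads for wild-type HDM, a ratio of 0 with an exact 95% upper bound of 0.536. It was also listed at 0 in the IL-22 and PBS libraries. With 1 library per group there is no replicate check, no p-value was computed, and all intervals cover counting error only. In whole-lung RNA, fewer cells of a type and less RNA per cell cannot be told apart.

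The granule genes Epx and Prg3, which are not members, were at or near 0 in these lungs. Epx had 0 reads in the IL22-/- HDM library, 1 read in wild-type HDM, 0 with IL-22 and 2 with PBS. Prg3, a homologue of major basic protein, had 0, 1, 1 and 0 reads in the same order of libraries. The granule gene Prg2, a member, had 3 reads in IL22-/- HDM and 45 in wild-type HDM, with 15 after IL-22 and 7 after PBS. The number of eosinophils was not measured, and the genes are described by name.

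**Figure D2:**
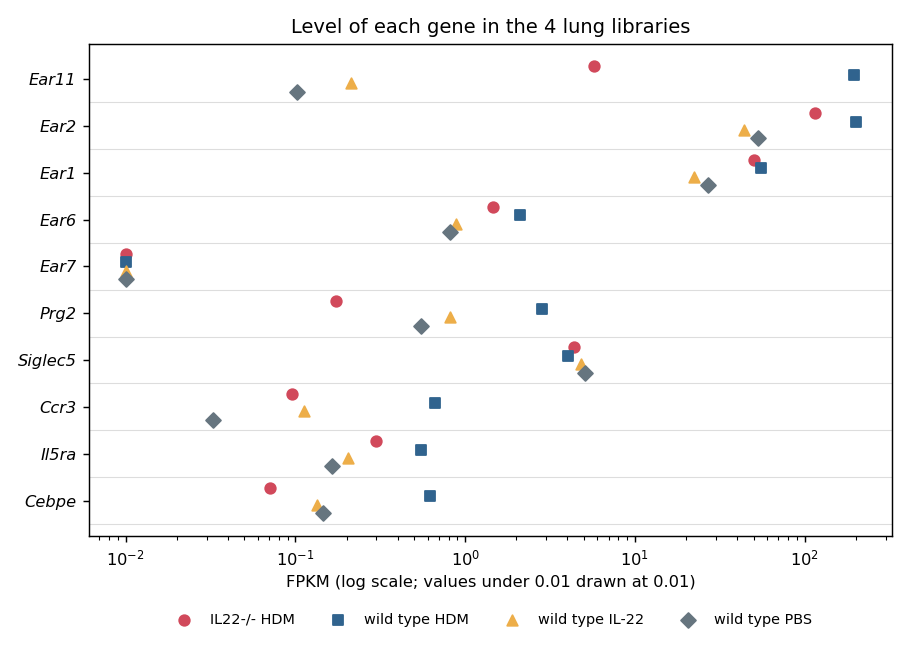
FPKM of the 10 genes in the 4 libraries on a log scale, 1 point per library, with values under 0.01 drawn at 0.01. The wild-type HDM library is highest for 8 of the 10 genes, Ear11 spans 0.103 to 195 FPKM, and Siglec5 stays between 4.06 and 5.05 FPKM.

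Loss of IL-22 was examined first in the HDM pair, by the difference of log2(FPKM + 1) between the IL22-/- and the wild-type library. A gene was counted as measured at a mean FPKM of at least 1 in the pair, and as lower or higher where this difference was at least 1 in size. Ear11 and Prg2 were lower in the IL22-/- library and no member was higher, out of 6 measured members. Among all 13285 measured genes, 2.42% were lower and 0.549% higher by the same rule. Prg2 passed the filter only through its wild-type level, so the count is a description. Over all 10 members without the filter the count was again 2 lower and 0 higher, where 1.43% of 23284 genes were lower and 0.322% higher. The median difference over the 6 measured members was -0.57, beside 0.03 over all measured genes.

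Ear11, a secreted ribonuclease reported to attract macrophages in mice, had 5.71 FPKM in the IL22-/- HDM library and 195 FPKM in the wild-type HDM library. The difference of log2(FPKM + 1) was -4.87, and the FPKM itself was 34.2-fold lower in IL22-/-. In reads these levels correspond to 76 in IL22-/- and 2376 in wild type. By level Ear11 ranked 8507 in the IL22-/- HDM library and 383 in the wild-type HDM library among all genes. Side by side, it had 0.213 FPKM with IL-22 and 0.103 FPKM with PBS, which are 3 reads and 1 read. As deposited, the wild-type HDM library stood high, the IL22-/- HDM library lower, and both libraries without HDM were close to the limit of detection.

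Ear2, a ribonuclease reported to attract dendritic cells, was at 114 FPKM in the IL22-/- HDM library and 201 FPKM in the wild-type HDM library. The difference of -0.80 was short of the size rule. Levels of 43.7 FPKM with IL-22 and 53.3 FPKM with PBS show that Ear2 RNA was abundant also without allergen. Ear1 had 50.3 FPKM in the IL22-/- HDM library and 55.0 FPKM in the wild-type HDM library, a difference of -0.13, and 22.3 and 27.0 FPKM with IL-22 and with PBS. In read numbers not corrected for depth the HDM values of Ear1 were alike, at 701 in IL22-/- and 700 in wild type. Ear6 was low throughout, with 1.46 FPKM in the IL22-/- HDM library, 2.10 in wild-type HDM, 0.884 with IL-22 and 0.818 with PBS. Its 20 reads in IL22-/- and 27 in wild type gave a ratio of 0.677 (exact 95% interval 0.360 to 1.25), an interval that holds 1 and also changes in either direction. Ear7 was listed at 4.67e-07 FPKM in the IL22-/- HDM library, 2.40e-07 in wild-type HDM and 1.54e-06 with IL-22, and at 0 with PBS. No fold is given for it.

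The same genes can be read as proportions within a library, which no scaling between libraries can alter. The ratio of Ear11 to Ear2 FPKM was 0.0499 in the IL22-/- HDM library and 0.974 in the wild-type HDM library, and it was 0.00488 with IL-22 and 0.00192 with PBS. Ear11 RNA was thus about as abundant per length as Ear2 RNA in the wild-type HDM lung, and lower than Ear2 in the other libraries. Of the FPKM of all 10 Ear rows in the tables, Ear11 made up 3.10% in the IL22-/- HDM library and 39.1% in the wild-type HDM library, against 0.162% with IL-22 and 0.0652% with PBS.

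Rows of Ear genes outside the member list did not all follow Ear11. Ear5, its closest relative, had 0.197 FPKM in the IL22-/- HDM library and 1.58 FPKM in the wild-type HDM library. These are 3 and 22 reads, a ratio of 0.125 (exact 95% interval 0.0239 to 0.415). Ear12 had 4.65 FPKM in the IL22-/- HDM library and 30.7 FPKM in the wild-type HDM library, a difference of -2.49, but 57.4 FPKM with IL-22 and 66.8 FPKM with PBS. Within each library Ear12 made up 2.52% of Ear FPKM in IL22-/- HDM and 6.14% in wild-type HDM, but 43.6% with IL-22 and 42.5% with PBS. How many of the Ear12 reads could also match other Ear genes was not tested. Ear10 was at 7.43 against 13.9 FPKM in the HDM pair, IL22-/- first, a difference of -0.82. Ear4 and Ear14 were listed at 0 in all 4 libraries.

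Adding the Ear rows together can lessen the effect of reads split between the rows added. It does not cover Ear-ps9 and Ear-ps2, which share windows with Ear1 and Ear2 and are in none of the sums. The sum of the members also leaves out Ear10, and how multiply mapped reads were handled is not known. The 5 member Ear genes summed to 172 FPKM in the IL22-/- HDM library and 453 FPKM in the wild-type HDM library, a difference of -1.39. All 10 Ear rows summed to 184 and 499 FPKM in these libraries, a difference of -1.43. Leaving out Ear11, the other 9 rows summed to 179 FPKM in IL22-/- and 304 FPKM in wild type, and the difference of -0.76 no longer reached the size rule. In the pair without HDM, all 10 rows summed to 132 FPKM with IL-22 and 157 FPKM with PBS.

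**Figure D3:**
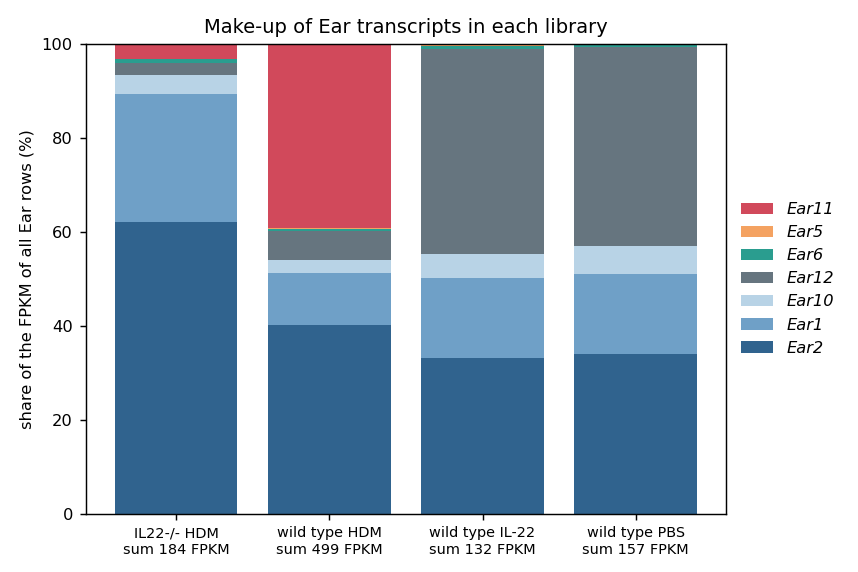
Stacked bars give the share of each Ear gene in the summed FPKM of all Ear rows of a library, with that sum under each bar. Ear11 takes 3.10% in the IL22-/- HDM library and 39.1% in the wild-type HDM library, while Ear12 takes 43.6% with IL-22 and 42.5% with PBS.

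Prg2, the gene of major basic protein, had 0.173 FPKM in the IL22-/- HDM library and 2.83 FPKM in the wild-type HDM library, a difference of -1.71. These levels are 3 and 45 reads, a ratio of 0.061 (exact 95% interval 0.0121 to 0.190). With IL-22 it had 0.817 FPKM and with PBS 0.551 FPKM, or 15 and 7 reads. As deposited, the IL22-/- HDM library was the lowest of the 4 for Prg2 and wild-type HDM the highest. Relative to Siglec5 within a library, Prg2 stood at 0.0397 in IL22-/- HDM, 0.698 in wild-type HDM, 0.170 with IL-22 and 0.109 with PBS.

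The receptor genes of eosinophil recruitment and growth were below the filter and are given as reads. Ccr3, the eotaxin receptor, had 8 reads in the IL22-/- HDM library and 51 in the wild-type HDM library (0.0952 and 0.663 FPKM). The ratio after depth was 0.143, with an exact 95% interval of 0.0588 to 0.305. Side by side, Ccr3 had 10 reads after IL-22 and 2 after PBS. Il5ra, the ligand-binding chain of the interleukin-5 receptor, had 27 reads in the IL22-/- HDM library and 46 in the wild-type HDM library, a ratio of 0.537 (0.321 to 0.882). Without HDM its reads numbered 20 after IL-22 and 11 after PBS. Ccr3 had the smaller ratio of the pair, and the counting intervals of the ratios of Ccr3 and Il5ra did not overlap.

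Siglec5, a sialic acid-binding inhibitory receptor of eosinophils and alveolar macrophages in mice, was flat. It had 4.35 FPKM in the IL22-/- HDM library and 4.06 FPKM in the wild-type HDM library, a difference of 0.08, and 4.80 and 5.05 FPKM with IL-22 and with PBS. Cebpe, the factor needed for the terminal maturation of granulocytes, had 2 reads for IL22-/- HDM and 16 for wild-type HDM, a ratio of 0.114 (0.0128 to 0.486). Its reads numbered 4 after IL-22 and 3 after PBS. On the log2 scale Ccr3 and Cebpe each differed by -0.60 in the HDM pair, which became -1.97 and -2.07, past the size rule, with a pseudocount of 0.1. Secondary granule genes of neutrophil precursors, which also need Cebpe, were picked out after their values were seen. Ngp was at 0.839 FPKM in the IL22-/- HDM library and 0.667 FPKM in the wild-type HDM library, and at 14.9 FPKM with IL-22 and 26.8 FPKM with PBS. Camp was at 0.370 against 0.101 FPKM in the HDM pair, IL22-/- first. The part of neutrophil precursors in the Cebpe reads was not tested.

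**Figure D4:**
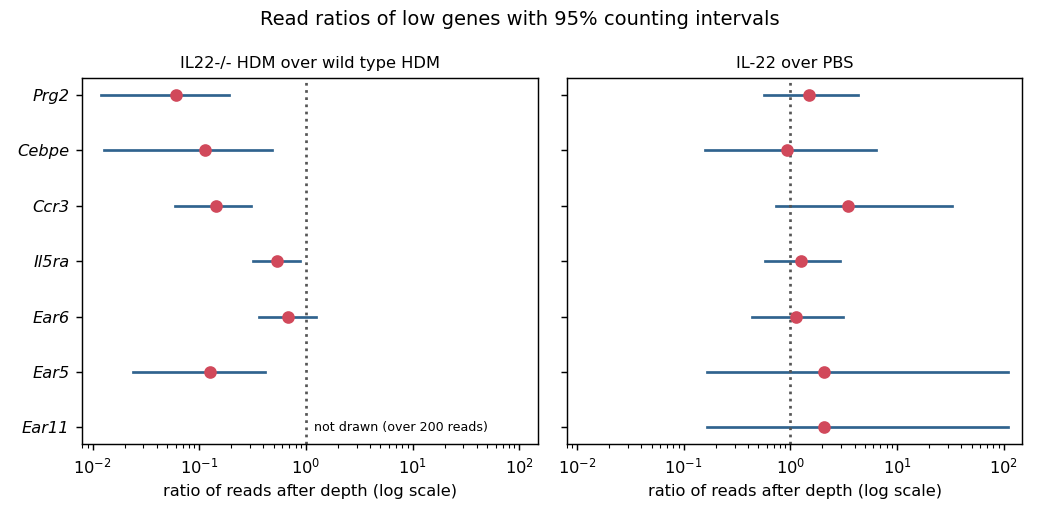
Points are ratios of estimated reads after relative depth, on a log axis, and lines are exact 95% counting intervals, for Ear5 and for members under 200 reads in both libraries of a pair. In the HDM pair the intervals of Prg2, Cebpe, Ccr3, Il5ra and Ear5 lie below 1, and in the IL-22 and PBS pair the interval of each gene drawn holds 1.

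IL-22 given to lungs without allergen was compared with PBS, and no member passed the size rule. None of 3 measured members was higher or lower, beside 0.597% higher and 0.189% lower among 13233 measured genes. Without the filter, none of the 10 members passed the size rule either, where 0.356% of all genes were higher and 0.129% lower. The median over the 3 measured members was -0.27, and over all measured genes 0.04. Ear2 and Ear1 had differences of -0.28 and -0.27 and Siglec5 one of -0.06. For the low members the ratio of IL-22 to PBS reads was 3.48 for Ccr3 (exact 95% interval 0.741 to 32.6), 1.49 for Prg2 (0.572 to 4.32), 1.26 for Il5ra (0.577 to 2.92), 1.13 for Ear6 (0.434 to 3.14) and 0.927 for Cebpe (0.157 to 6.33). Ear11 had a ratio of 2.09 (0.167 to 110). All 6 intervals held 1, and the widest, for Ear11 and Ccr3, also hold large changes.

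**Figure D5:**
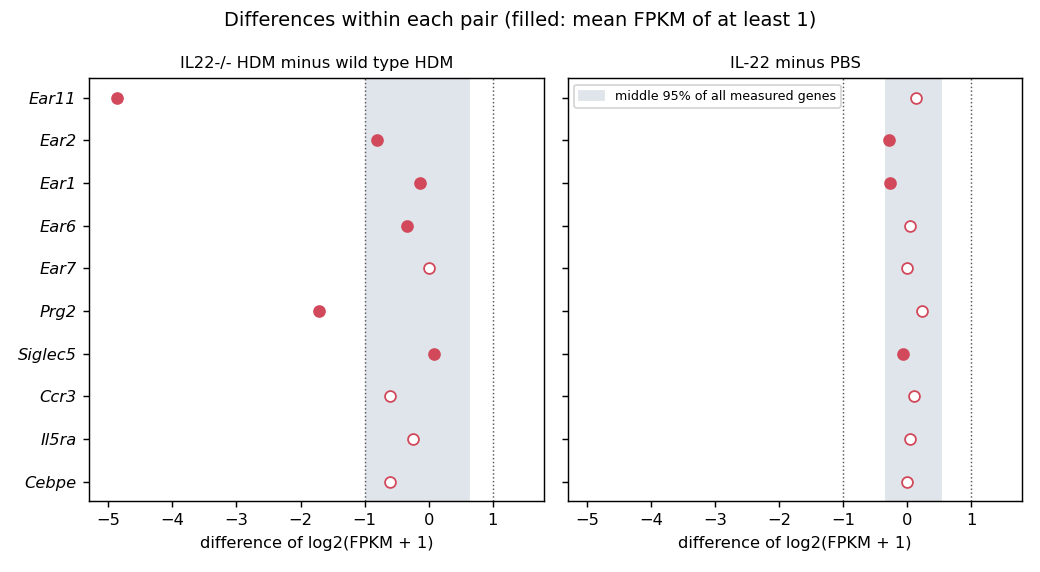
Differences of log2(FPKM + 1) for the 10 genes within each pair, with grey bands for the middle 95% of all measured genes and dotted lines at the size rule of 1. Ear11 at -4.87 and Prg2 at -1.71 lie outside the band in the HDM pair, and all members lie inside it for IL-22 minus PBS.

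Several genes that attract eosinophils or sustain them were lower in the IL22-/- HDM library. Of the 13 genes in that list 8 were measured in the HDM pair. Lower levels were found for 5 of them and higher levels for none, where 2.42% of all measured genes were lower, and the median was -1.84. Ccl24 and Ccl7 passed the filter only through their wild-type level, so this count is a description too. Ccl24 and Ccl11, the eotaxins that bind the Ccr3 product, had differences of -3.55 and -2.18, and Ccl24 stood at 0.471 FPKM in IL22-/- against 16.2 FPKM in wild type. The CC chemokines Ccl8 and Ccl7 had differences of -3.65 and -2.35, and Il33, an epithelial alarmin, one of -1.50. Il5, the growth factor that binds the Il5ra product, had 9 reads in IL22-/- and 12 in wild type, a ratio of 0.686 (exact 95% interval 0.255 to 1.77), an interval that holds 1. Il13, below the filter, had 0 reads in IL22-/- and 19 in wild type, a ratio of 0 with an exact 95% upper bound of 0.196. Csf2 had 85 and 164 reads, a ratio of 0.474 (0.360 to 0.620), and its difference of -0.95 was short of the size rule. Tslp went the other way, with a difference of 0.40. Il13, Csf2 and Tslp were picked out after their values were seen. With IL-22 and PBS, none of 8 measured genes of the list passed the size rule. Ccl11 had 147 reads after IL-22 and 67 after PBS, which gave a read ratio of 1.53 (exact 95% interval 1.14 to 2.07). Ccl24 had 47 reads after IL-22 and 17 after PBS, which gave 1.92 (1.08 to 3.57).

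Measured receptor partners and transcription factors did not reach the size rule. Cebpe, which is also in the transcription factor list, was below the filter, with a read ratio of 0.114 in the HDM pair. Of 7 measured receptor genes that eosinophils share with other cells none passed the size rule in the HDM pair, although 6 lay below 0, with a median of -0.76. Ccr1, a chemokine receptor, had a difference of -0.99, and Csf2rb, the signalling chain that the interleukin-5 receptor shares with those of interleukin-3 and GM-CSF, had one of -0.88. Csf2ra and Il1rl1, the chain that binds GM-CSF and the interleukin-33 receptor, were at -0.77 and -0.76. In the other pair the median of 6 measured genes was 0.02 and none passed. Among 9 measured granulocyte transcription factor genes none passed in either pair, with medians of 0.11 and -0.04. Their differences in the HDM pair included -0.42 for Irf8, 0.41 for Gata2, -0.32 for Cebpb and 0.28 for Cebpa. Gata1, the factor that commits progenitors to the eosinophil lineage, had 11 reads in IL22-/- and 16 in wild type, a ratio of 0.629 (0.264 to 1.44).

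Within the RNase A family list, 10 genes were measured in the HDM pair, and the median was -0.32. Of these, Ear11 and Ear12 were lower and none higher, beside 2.42% lower and 0.549% higher among all measured genes. Rnh1, the cytosolic inhibitor that binds ribonucleases of this family, had 52.7 FPKM in the IL22-/- HDM library and 65.9 FPKM in the wild-type HDM library, a difference of -0.32. In the IL-22 and PBS pair none of 8 measured genes passed and the median was -0.24. Among 5 measured Siglec genes none passed in the HDM pair (median -0.23), with Siglec1, the sialoadhesin of macrophages, at -0.93, Cd33 at -0.30, Siglece at -0.23 and Cd22 at -0.11. With IL-22, Siglece was higher, at 13.2 FPKM against 3.64 FPKM with PBS. It was the only one of 5 measured Siglec genes to pass, beside 0.597% higher among all measured genes.

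Markers of other cells that share these genes differed between the HDM libraries too. The eosinophil list as a whole, which holds all 10 members and so repeats their values, had 8 measured genes of 15. Of these, 3 were lower, none was higher and the median was -0.70. Among all measured genes 2.42% were lower and 0.549% higher. The summed level of this list was 206 FPKM in IL22-/- HDM and 510 FPKM in wild-type HDM. Ear11 alone gave 5.71 and 195 FPKM of these sums, and Ear2 gave 114 and 201 FPKM. The 2 genes at 0 in IL22-/- were Epx and Prg3, which had only 1 read each in wild type. In the IL-22 and PBS pair none of its 6 measured genes passed and the median was -0.14. The gene besides Ear11 and Prg2 was Alox15, a lipoxygenase of eosinophils and macrophages, at 0.363 FPKM in IL22-/- and 5.35 FPKM in wild type, which like Prg2 passed the filter only through wild type. Of 15 measured alveolar macrophage markers 4 were lower and 1 higher, beside 2.42% and 0.549% of all measured genes, and the median was -0.13. Ear1, Ear2 and Siglec5 are themselves 3 of these 15. The lower ones were Chi3l3 (-2.73), Itgax (-1.61), Fabp4 (-1.48) and Mrc1 (-1.02), and Fabp1 was higher (1.02). The summed level of all 15 was 787 FPKM in the IL22-/- HDM library and 3034 FPKM in the wild-type HDM library, of which Chi3l3 alone gave 367 and 2438 FPKM, and no marker was at 0. The sums were 710 FPKM with IL-22 and 663 FPKM with PBS. In that pair Fabp4 was higher by 1.37, no marker was lower and the median was -0.18. Of all measured genes there, 0.597% were higher and 0.189% lower. How far alveolar macrophages take part in the values of Ear1, Ear2 and Siglec5 was not tested.

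Neutrophil markers went both ways in the HDM pair, with a median of 0.36 over 5 measured genes. S100a8 and S100a9 were higher by 1.11 and 1.19, where 0.549% of all measured genes were higher. Retnlg was lower, at 22.1 FPKM in IL22-/- against 79.5 FPKM in wild type, where 2.42% of all measured genes were lower. Csf3r was at 0.36. Of 10 mast cell and basophil markers only Kit was measured there, with a difference of 0.66, and the basophil gene Mcpt8 had 0.0576 FPKM in IL22-/- and 0.126 FPKM in wild type. Medians in the IL-22 and PBS pair were -0.12 for the 8 measured neutrophil genes and 0.00 for the 5 measured mast cell and basophil genes, with none past the size rule. The 7 lung markers had medians of 0.23 and -0.12 in the HDM pair and the other pair, and none passed in either. Their largest differences in the HDM pair were -0.58 for Foxj1, 0.45 for Cdh5, -0.38 for Sftpa1 and 0.35 for Sftpb.

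Genes whose pattern over the 4 libraries was nearest to that of Ear11 were sought by the distance between log2(FPKM + 1) values centred on each gene's mean, among 12006 named genes. This distance crosses the tables and so includes any difference in their scaling. The 5 nearest to Ear11 were Ccl8 (1.25), Slc26a4 (1.69), Retnla (1.84), Chia (2.28) and Clca3 (2.50), where the median gene lay at 6.09. Slc26a4, the anion exchanger pendrin, had 3.36 FPKM in the IL22-/- HDM library and 52.9 FPKM in the wild-type HDM library, with 0.264 FPKM with IL-22 and 0.381 FPKM with PBS. Nearest to Ear2 were Rhox8 (0.16), H2-T22 (0.30), Gclc (0.37), Mt2 (0.42) and Fam3b (0.44). Siglec5 varied so little that its nearest genes, Lace1, Cd2bp2, Edf1, Med4 and Nrbp1 (distances of 0.01 to 0.02), were themselves almost flat.

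Start-site sequences were available for 7 of the 10 members in a RefSeq table for GRCm38.p6, covering 250 bases before to 50 bases after the start. They were searched on both strands for the GATA-type motif AGATAA, a STAT6-type motif (TTC and GAA with 4 bases between them) and the STAT-type motif TTCNNNGAA. These motifs can overlap one another. Among 32851 start-site sequences these were held by 11.2%, 6.95% and 8.30%. Ear11 is shown as the member with the largest difference, and Ccr3 and Il5ra as those that held a match, with matches in capitals.
Ear11 (chr14:51256063-51256362, minus strand): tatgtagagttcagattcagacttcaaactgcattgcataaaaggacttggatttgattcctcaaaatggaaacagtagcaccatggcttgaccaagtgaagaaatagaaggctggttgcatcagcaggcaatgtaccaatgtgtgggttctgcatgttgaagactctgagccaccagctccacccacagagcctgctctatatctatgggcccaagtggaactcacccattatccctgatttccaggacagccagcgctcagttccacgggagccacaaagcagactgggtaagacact
Ccr3 (chr9:124021721-124022020, plus strand): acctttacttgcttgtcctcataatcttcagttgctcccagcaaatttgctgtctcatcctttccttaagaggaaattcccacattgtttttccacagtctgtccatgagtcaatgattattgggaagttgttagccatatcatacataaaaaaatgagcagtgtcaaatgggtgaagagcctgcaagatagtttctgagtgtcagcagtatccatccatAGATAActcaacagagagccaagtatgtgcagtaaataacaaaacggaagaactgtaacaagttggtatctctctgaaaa
Il5ra (chr6:106748988-106749287, minus strand): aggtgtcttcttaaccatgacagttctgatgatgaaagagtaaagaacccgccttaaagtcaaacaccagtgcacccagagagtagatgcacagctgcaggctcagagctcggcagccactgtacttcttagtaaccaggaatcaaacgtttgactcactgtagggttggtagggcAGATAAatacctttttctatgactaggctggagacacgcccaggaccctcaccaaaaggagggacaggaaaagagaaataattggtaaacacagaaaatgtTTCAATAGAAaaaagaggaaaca
The window of Ear11 held none of the motifs, and neither did those of Ear1, Ear2, Ear6 and Siglec5. The window of Ccr3 held AGATAA and that of Il5ra held AGATAA and the STAT6-type motif. Over these windows Ear11 was 81.5% identical to Ear5 and 64.6% to Ear2, while Ear1 and Ear2 were 97.0% identical. A match is a description of letters and not of binding, and the absence of a match covers this window alone.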

How the data were processed

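Lung RNA of 4 libraries, 1 per group, was compared in pairs within each of the 2 deposited tables. The deposited values are FPKM per gene, made by the authors with CASAVA 1.8.2, TopHat2 and Cufflinks 2.2.1 on mm10, per the submitters' processing notes. Settings and the handling of multiply mapped reads were not given in the sources used here. Tables of 23746 rows were joined on symbol and accession, 22 of 25 symbols turned into dates were restored from the accession, and rows of a symbol were added, which left 23284 genes. Groups were taken from the sample titles. The 10 member genes, the 10 gene lists and the rules were chosen with earlier results of these data known. Named were all members, up to 4 measured genes of each list with the largest HDM difference, Epx, Prg3, Il5, Ccl11, Ccl24, Rnh1, Gata1 and Il22, and the 5 genes nearest to Ear11, Ear2 and Siglec5; other names were chosen after their values were seen.

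Reads were recovered from FPKM, the GENCODE M21 transcript length less 200 bases, and the depth at which low values are whole. Of 6518 values under about 6 reads, 65.6% came within 0.1 of a whole number of reads, and 20% would do so by chance. Reads were rounded. Ratios have exact (Clopper-Pearson) 95% binomial intervals, which cover counting error only and compare libraries, not conditions. The steps were tested on simulated data. Alternatives were a pseudocount of 0.1, other scalings, filters and size rules, and full transcript length; sums over all Ear rows, with and without Ear11, were added after seeing the data. Python 3.11.15, numpy 2.4.6, pandas 2.3.3, scipy 1.17.1, Biopython 1.88 and matplotlib 3.10.9 were used.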

Additional observations from a re-analysis of the deposited data

How the results depend on the processing

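Of 99 alternative values computed for the members, 95 kept their side of the size rule, their count within 1.5 times, or for read ratios whether the interval held 1. Signs turned for values short of the size rule in the IL-22 and PBS pair: the median over members was 0.02 with no filter, against -0.27, and Siglec5 was at 0.03 with scaling to a common total, against -0.06. With a pseudocount of 0.1 the HDM differences of Ccr3 and Cebpe passed the size rule, at -1.97 and -2.07. With a mean FPKM of at least 5 only 3 members were measured in the HDM pair and 1 of them, Ear11, was lower, because Prg2 fell below that filter. The summed Ear difference of -1.39 fell short of the size rule, at -0.76, when Ear11 was left out of all Ear rows, an alternative added after seeing the data. Scaling moved the median of all genes in the IL-22 and PBS pair to 0.13 with a common total and 0.00 by the median ratio, beside 0.04. Over all genes, a pseudocount of 0.1 gave 131 higher and 488 lower in the HDM pair (73 and 322 with a pseudocount of 1) and 132 and 34 in the IL-22 and PBS pair (79 and 25). A mean FPKM of at least 5 gave 58 and 193 in the HDM pair, and a size rule of 1.5 gave 25 and 126 there and 31 and 21 in the other pair. No paired analysis was possible because each group has 1 library, and for the same reason no library could be left out. Reads of Ear6 came out between whole numbers (20.35 in IL22-/- HDM and 8.38 with PBS). So did those of Ccr3 in wild-type HDM (50.58) and of Il5ra in IL22-/- HDM (27.29) and wild-type HDM (45.76), among others. Their intervals rest on the rounded reads. Reads of Prg2 in IL22-/- HDM and with PBS lay close to whole numbers (2.99 and 7.01), and the cause was not tested.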

Other observations

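Not every ribonuclease of the family was lower in the IL22-/- HDM lung. Rnase4 and Ang overlap on the same strand in the annotation, so the split of reads between them is uncertain. They were at 466 FPKM in IL22-/- HDM against 310 FPKM in wild-type HDM and at 68.4 against 52.8 FPKM, with differences of 0.59 and 0.37. Rnase1, the pancreatic-type ribonuclease, was below the filter, at 0.238 FPKM in IL22-/- and 1.36 FPKM in wild type. Its difference of -0.93 was short of the size rule, and it was listed at 0 with IL-22 and with PBS. Hdc, the histidine decarboxylase of histamine synthesis, was at 27.6 FPKM in IL22-/- and 42.0 FPKM in wild type. Emr4, a receptor of eosinophils and macrophages, had 86 reads in IL22-/- and 84 in wild type, a ratio of 0.936 (exact 95% bounds 0.685 and 1.28). These genes were picked out after their values were seen.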
